A study of Saccharomyces cerevisiae with 28 samples.

Results

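TIP1, TIR1, TIR2, TIR3, TIR4, DAN1, DAN4, CWP1, CWP2 and SED1 encode mannoproteins of the yeast cell wall. They were chosen by gene symbol in the platform annotation, with earlier results of these data known. Each of the 10 had 1 probe set of its own among the 5656 genes that could be read from single-gene probe sets. Their levels on the log2 scale were followed over 28 Affymetrix arrays of Saccharomyces cerevisiae in log phase. BY is a strain isogenic to the laboratory strain S288C and RM a vineyard isolate. Haploid BY, haploid RM, and diploids made by crossing within BY or within RM, as far as the titles and descriptions tell, gave 3 arrays each. Diploid hybrids of BY and RM, and 1:1 mixtures of BY and RM mRNA, gave 6 arrays each. Segregants of that cross, and diploids made by crossing segregants, gave 2 arrays each. The labels give no mating types or marker alleles, and all groups share the growth phase.

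Cell wall mannoproteins of this kind are secreted with a glycosylphosphatidylinositol anchor, decorated with O-linked mannose and then tied to the glucan of the wall. The wall is remodelled with the growth state. CWP1 and CWP2 are made by aerobically growing cells, whereas the TIR and DAN genes are known as genes of cold or of anaerobic growth, when Upc2 and the loss of heme-dependent repression switch them on. SED1 encodes a major structural protein of the wall under stress and in stationary phase, and TIP1 a mannoprotein induced by temperature shock. In the R64 annotation DAN1 lies beside DAN4 on chromosome X, CWP1 beside CWP2 on chromosome XI, and TIR4 beside TIR2 on chromosome XV, followed by the sterol importer gene AUS1. TIP1 lies on chromosome II, TIR1 on V, TIR3 on IX and SED1 on IV.

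Array medians lay between 7.34 and 7.56, and mean correlations with the other arrays of a group were 0.963 or higher except for mixture replicate 5, at 0.922. Haploids of BY and RM had the haploid-specific gene GPA1 at 8.11 and 8.09 and the mixtures had it at 8.20, against 5.99, 6.11 and 5.96 for BY, RM and hybrid diploids. The mixtures therefore differ from the hybrids in this haploid marker too, and ploidy and origin of the RNA cannot be told apart between these groups. The a-cell marker MFA2 stood at 6.92 in haploid BY and 12.59 in haploid RM, and the alpha-cell marker SAG1 at 11.94 and 6.90, so strain and mating type cannot be told apart in haploids. In BY and RM diploids MFA2 was at 7.02 and 7.49 and SAG1 at 7.28 and 7.34. Whether replicates came from independent cultures is not given, and the p-values cover the spread between arrays alone, which may be technical. Group means were fitted with limma on the 24 arrays of the 6 larger groups. A gene is called where its p, adjusted over all 9274 probe sets by the Benjamini-Hochberg method, is under 0.05. The number of arrays limits the precision, and the values come with no detection calls. DAN1 lay below the array median on 26 of 28 arrays and DAN4 on 2, and the other 8 genes lay above it on every array.

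Among the 10 genes TIP1 varied over the groups by far the most. A moderated F test of equal means called 7 of 10 genes, TIP1, CWP1, SED1, TIR3, TIR2, CWP2 and TIR1 in rising order of adjusted p, beside 50.1% of all probe sets. Adjusted p-values were 1.9e-14 for TIP1, 8.6e-07 for CWP1 and 0.0035 for SED1. They were 0.073 for TIR4, 0.077 for DAN4 and 0.42 for DAN1, the genes that were not called. Over the 8 groups the means of TIP1 spanned 2.85 on the log2 scale and those of CWP1 1.17. The spans of the other 8 genes ran from 0.36 for DAN1 to 0.92 for TIR3.

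**Figure D1:**
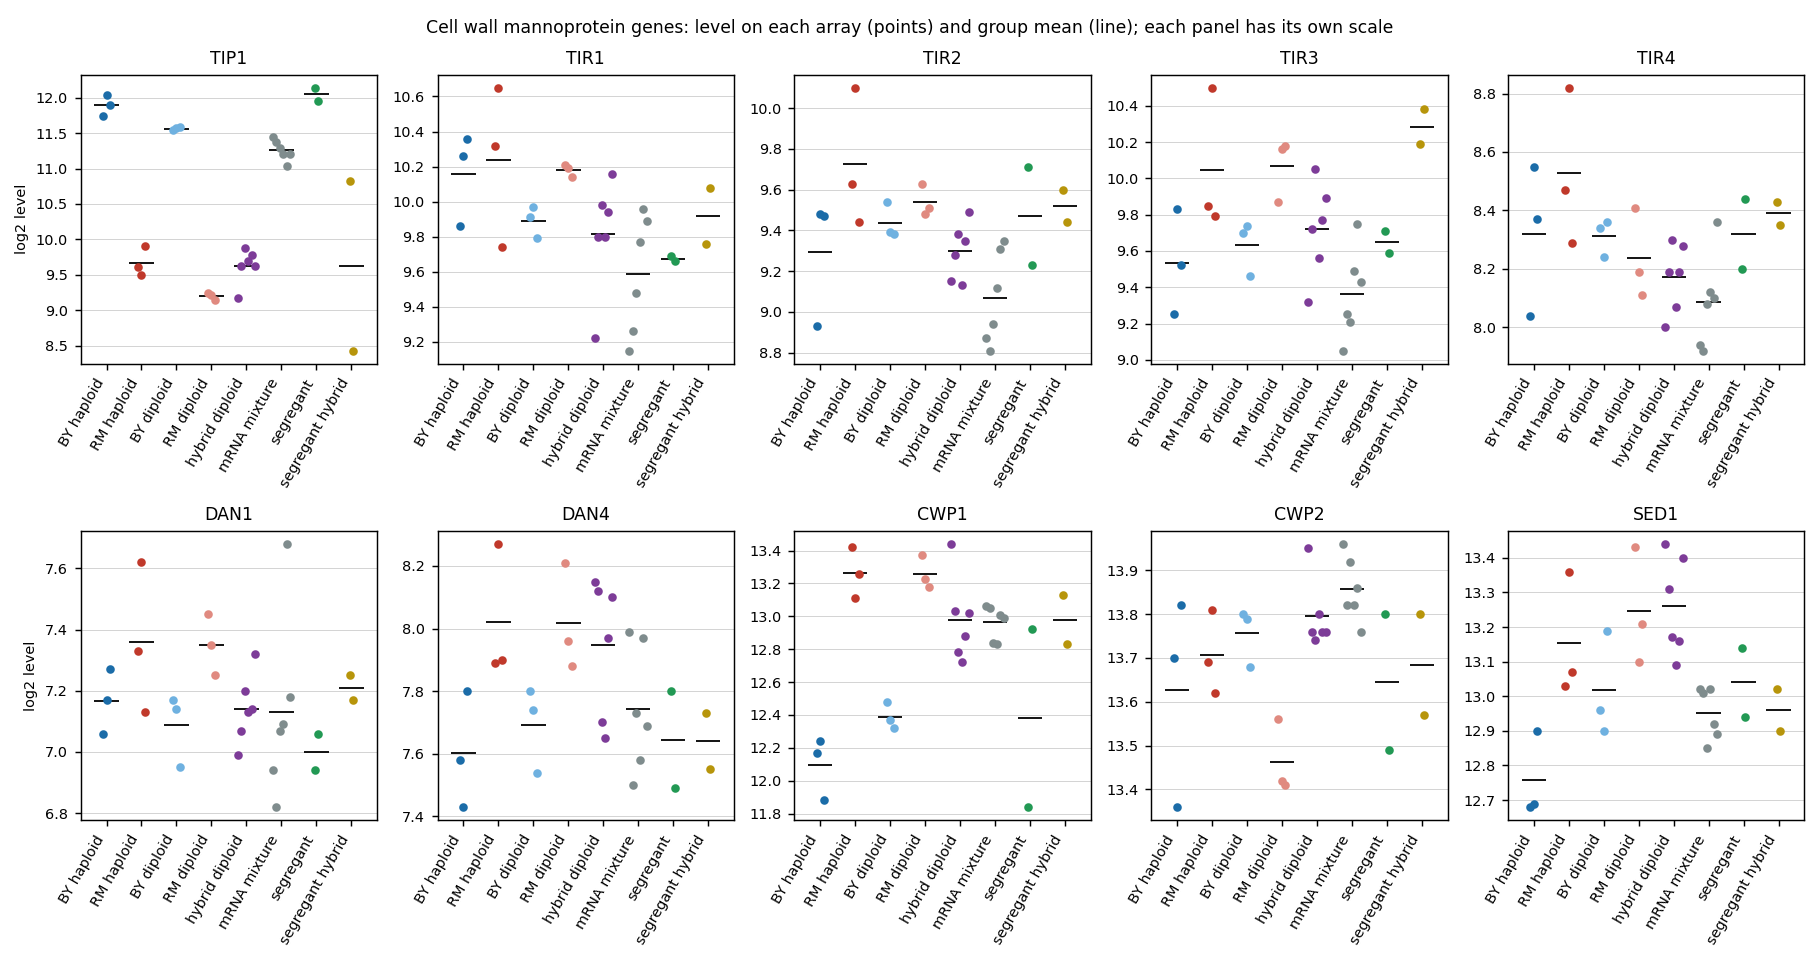
Level of each of the 10 genes (log2, vertical axis, own scale per panel) on each array (points) with the group mean (line), for the 8 groups. TIP1 falls into a high band of BY, mixtures and segregants at 11.04 to 12.14 and a low band of RM and hybrids at 9.15 to 9.91, with the segregant hybrids at 10.83 and 8.43.

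TIP1 was high in BY and low in RM, in haploids and diploids alike, and the hybrids were close to the low parent. BY haploids were at 11.74, 12.04 and 11.89 and RM haploids at 9.61, 9.50 and 9.91. The strains did not overlap, and TIP1 was 4.65-fold lower in RM haploids, by -2.22 ± 0.15 on the log2 scale (difference ± SE, n = 3 per strain, limma adjusted p = 2.9e-11). BY diploids were at 11.54, 11.57 and 11.58 and RM diploids at 9.24, 9.21 and 9.15. There the gap was -2.36 ± 0.15, a 5.15-fold lower level in RM (limma adjusted p = 1.8e-11), again with no overlap. The strain by ploidy interaction, the diploid gap minus the haploid gap, was -0.15 ± 0.21 and was not called (limma adjusted p = 0.93). In RNA of whole cultures, fewer cells with a transcript and less transcript per cell cannot be told apart. The array was designed on the reference sequence, and a poorer match of RM transcripts to a probe set cannot be told apart from a lower level in the strain comparisons of any gene here.

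The 6 hybrid arrays held TIP1 at 9.17, 9.62, 9.88, 9.70, 9.78 and 9.63, below every BY diploid array. The hybrids were 3.82-fold lower than BY diploids, by -1.93 ± 0.13 (limma adjusted p = 2.4e-10). Against RM diploids they were higher by 0.43 ± 0.13 (limma adjusted p = 0.029), although hybrid replicate 1 at 9.17 lay among the RM arrays. The latter call ended when hybrid replicate 3 or 5 or any single RM diploid array was left out (adjusted p of 0.0516 to 0.0961), under quantile normalization (0.113), in a fit on these groups alone (0.0664) and on all 28 arrays (0.305). The midparent, the log2 of the mean of the parents' linear levels, stood at 10.82 for the diploids. The hybrids lay 2.28-fold under it, at -1.19 ± 0.12 (limma adjusted p = 6.3e-07), and at -1.10 without hybrid replicate 1 (adjusted p = 4.2e-07). With the mean of the parents' log2 values as midparent the difference was -0.75, and still called (adjusted p = 3.5e-05).

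The mRNA mixtures gave another picture for TIP1. They held it at 11.45, 11.37, 11.29, 11.20, 11.04 and 11.20, which was 0.09 ± 0.12 from the haploid midparent of 11.17 (limma adjusted p = 0.69). Against the mean of the parents' log2 values, which is lower by construction, the mixtures were higher by 0.48 (adjusted p = 0.0046). Hybrids were lower than mixtures by -1.63 ± 0.10, or 3.09-fold, with no overlap between the 6 arrays of each group (limma adjusted p = 1.7e-11), and by -1.67 without mixture replicate 5. Beside this gap, the differences between diploids and haploids within a strain were -0.33 ± 0.15 in BY (limma adjusted p = 0.29) and -0.47 ± 0.15 in RM (limma adjusted p = 0.049). The RM call ended when RM haploid replicate 1 or 3 or any RM diploid array was left out (adjusted p of 0.0737 to 0.200), in a fit on these groups alone (0.108), on all 28 arrays (0.459) and with a replicate block (0.0703). It also ended on leaving out any BY array, hybrid replicate 2, 4, 5 or 6, or any mixture array but replicate 5, none of which enters the difference itself. Both segregant arrays, at 12.14 and 11.95, were in or above the range of BY haploids. The segregants also had mating markers near those of BY haploids, with means of 12.46 for SAG1 and 6.77 for MFA2. Mating type and strain origin therefore cannot be told apart in this likeness. The segregant hybrids were at 10.83 and 8.43, the first between the parents and the second under every other array of the series. These 4 arrays may each be another genotype and were not tested.

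In order of the TIP1 means, segregants stood at 12.05 and BY haploids at 11.89, overlapping in their arrays. BY diploids at 11.56, mixtures at 11.26 and RM haploids at 9.67 each lay apart from the group before. RM haploids, hybrids at 9.63, segregant hybrids at 9.63 and RM diploids at 9.20 overlapped in turn.

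The genes whose levels followed TIP1 most closely over the 28 arrays were TAT1 (Pearson r = 0.919) and NRG2 (r = 0.897). These arrays fall into groups, so the r values only describe a shared pattern. TAT1 and NRG2 were picked for this likeness on the same arrays, so their group differences below are no separate evidence of it. In the R64 order of protein-coding genes NRG2, TIP1, BAP2 and TAT1 follow each other on chromosome II. NRG2 encodes a transcriptional repressor of glucose-repressed genes, BAP2 a branched-chain amino acid permease and TAT1 a permease for tyrosine, valine and other amino acids. BAP2 was chosen after these values were seen, as the gene between TIP1 and TAT1.

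TAT1 was at 9.97, 10.05 and 9.81 in BY haploids and at 7.60, 7.50 and 7.64 in RM haploids. It was lower in RM by -2.36 ± 0.19 in haploids and -3.17 ± 0.19 in diploids (limma adjusted p = 5.8e-10 and 5.8e-12). Hybrids ranged from 7.49 to 8.36 with a median of 7.82, lower than the diploid midparent by -1.33 ± 0.15 (limma adjusted p = 4.4e-06) and lower than the mixtures by -1.26 ± 0.13 (limma adjusted p = 6.4e-08). Mixtures, at 8.89 to 9.48, were -0.02 ± 0.15 from the haploid midparent (limma adjusted p = 0.95). TAT1, picked for its r with TIP1, resembled it in having BY groups above mixtures and mixtures above RM and hybrids. Hybrids and mixtures did not overlap. The orders differed in that BY diploids, at 10.10, stood above BY haploids for TAT1, and hybrids, at 7.92, above RM haploids, at 7.58.

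NRG2 differed in the same direction between the strains by less, at -0.57 ± 0.13 in haploids and -0.64 ± 0.13 in diploids (limma adjusted p = 0.0022 and 0.00078). Its hybrids lay -0.05 ± 0.09 from the diploid midparent (limma adjusted p = 0.74). BAP2, the gene between TIP1 and TAT1, went the other way. It was higher in RM by 0.63 ± 0.14 in haploids (limma adjusted p = 0.0020) and by 0.41 ± 0.14 in diploids (limma adjusted p = 0.046), and its r with TIP1 was -0.506. The diploid call of BAP2 ended without any single BY diploid array or without RM diploid replicate 2 or 3 (adjusted p of 0.065 to 0.167). Farther along, ALG14 and YBR071W after TAT1 and ECM2 before NRG2 were called in neither strain comparison. CNM1, beyond ECM2, was lower in RM diploids by -0.43 ± 0.11 and YBR062C by -0.41 ± 0.09 (limma adjusted p = 0.0097 and 0.0027), and YBR062C also in RM haploids by -0.37 ± 0.09.

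**Figure D2:**
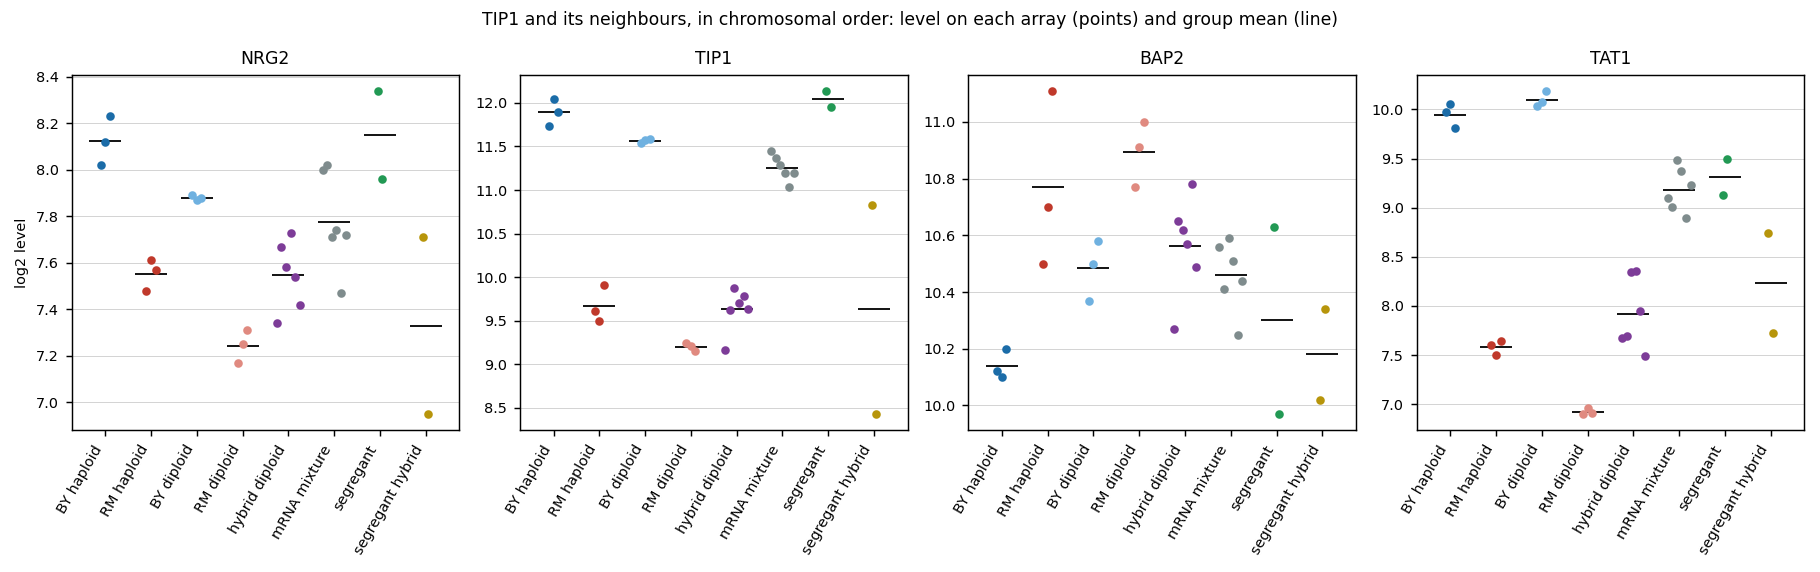
Level (log2, own scale per panel) of NRG2, TIP1, BAP2 and TAT1, in their order on chromosome II, on each array (points) with the group mean (line), for the 8 groups. TAT1 and NRG2 were picked for their r with TIP1 on these arrays. TIP1 and TAT1 share high BY and mixture arrays and low RM and hybrid arrays, while BAP2 has RM haploids at 10.50 to 11.11 above BY haploids at 10.10 to 10.20.

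CWP1 had the opposite strain difference to TIP1, and the mean of its hybrids lay between those of the diploid parents. CWP1 encodes a mannoprotein placed at birth scars. BY haploids were at 12.17, 12.24 and 11.88 and RM haploids at 13.42, 13.11 and 13.26. No array overlapped, and RM was higher by 1.17 ± 0.15, or 2.25-fold (limma adjusted p = 1.7e-06). In diploids, at 12.48, 12.37 and 12.32 for BY and 13.37, 13.23 and 13.18 for RM, the difference was 0.87 ± 0.15 (limma adjusted p = 0.00011). Hybrids were at 13.44, 13.03, 12.78, 12.72, 12.88 and 13.02, all above BY diploids, with a difference of 0.59 ± 0.13 (limma adjusted p = 0.0017). They differed from RM diploids by -0.28 ± 0.13 (limma adjusted p = 0.15), and by -0.37 without hybrid replicate 1, their highest array, which passed (adjusted p = 0.026). From the midparent they differed by 0.09 ± 0.11 and from the mixtures by 0.01 ± 0.10 (limma adjusted p = 0.59 and 0.93). The segregants were at 11.84, the lowest value of CWP1 on any array, and 12.92. The segregant hybrids were at 13.13 and 12.83.

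The order of the CWP1 means put RM haploids and RM diploids together at 13.26. Segregant hybrids at 12.98, hybrids at 12.98 and mixtures at 12.96 overlapped each other and had lower means. The hybrid arrays, at 12.72 to 13.44, overlapped those of RM haploids and RM diploids. BY diploids at 12.39 lay apart from the mixtures, and segregants at 12.38 and BY haploids at 12.10 overlapped in turn.

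CWP2, the neighbour of CWP1 and a major small mannoprotein of the wall, did not share that difference. It was at 13.70, 13.36 and 13.82 in BY haploids and at 13.69, 13.81 and 13.62 in RM haploids, overlapping, with a difference of 0.08 ± 0.11 (limma adjusted p = 0.70). In diploids RM was at 13.56, 13.42 and 13.41 against 13.80, 13.79 and 13.68 in BY. The arrays did not overlap, but the difference of -0.29 ± 0.11 was not called (limma adjusted p = 0.069). Hybrids, at 13.74 to 13.95 with a median of 13.76, were above every RM diploid array, by 0.33 ± 0.09 (limma adjusted p = 0.022). That call ended without RM diploid replicate 2 or 3 (adjusted p = 0.0985 and 0.0897). The diploid strain difference of CWP2 passed without the dimmest probe sets, with an intensity trend and in a fit on these groups alone (adjusted p of 0.0371 to 0.0491).

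SED1 differed less. BY haploids were at 12.68, 12.69 and 12.90 and RM haploids at 13.03, 13.36 and 13.07, with no overlap, a difference of 0.40 ± 0.12 and a limma adjusted p of 0.027. The call ended without BY haploid replicate 1 or 2 or RM haploid replicate 2 (adjusted p of 0.0892 to 0.145) after median centring (0.0942), after quantile normalization (0.0576) and in a fit on these groups alone (0.113). In diploids the arrays overlapped, at 0.23 ± 0.12 (limma adjusted p = 0.24). Hybrids had SED1 at 13.44, 13.31, 13.17, 13.09, 13.16 and 13.40, and mixtures at 13.02, 13.01, 12.85, 13.02, 12.92 and 12.89. Every hybrid array was above every mixture array, and the difference was 0.31 ± 0.09 (limma adjusted p = 0.0096). After quantile normalization it was 0.26 and not called (adjusted p = 0.056). Against the diploid midparent hybrids differed by 0.12 ± 0.09 (limma adjusted p = 0.34). The segregants were at 13.14 and 12.94 and the segregant hybrids at 13.02 and 12.90.

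In the order of SED1 means hybrids at 13.26, RM diploids at 13.25 and RM haploids at 13.15 came first, and BY haploids at 12.76 last, with each neighbouring pair of the 8 groups overlapping. The CWP2 order ran from mixtures at 13.86 to RM diploids at 13.46, also with every neighbouring pair overlapping.

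None of the 4 TIR and 2 DAN genes was called between the strains by limma, in haploids or in diploids. Of all probe sets 18.0% and 17.2% were called, and for so few genes the absence of calls is not read as different. In a fit on the diploid parents alone TIR1 and TIR3 passed (adjusted p = 0.0429 and 0.0365), and in haploids TIR3 passed without BY haploid replicate 2 (0.0469) and TIR2 without RM haploid replicate 3 (0.0375). Of the 4 TIR genes TIR3, which encodes a wall protein needed for anaerobic growth, had the largest strain differences, 0.51 ± 0.20 in haploids and 0.44 ± 0.20 in diploids (limma adjusted p = 0.089 and 0.17). TIR3 was at 9.25, 9.83 and 9.52 in BY haploids and at 9.85, 10.50 and 9.79 in RM haploids, overlapping. In diploids it was at 9.70, 9.74 and 9.46 in BY and at 9.87, 10.16 and 10.18 in RM, without overlap. The segregant hybrids, at 10.19 and 10.38, lay above every diploid array of RM.

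TIR1, a cold-induced and anaerobically induced serine- and alanine-rich wall protein, was at 9.86, 10.26 and 10.36 in BY haploids and at 10.32, 10.65 and 9.74 in RM haploids. The difference was 0.08 ± 0.23 (limma adjusted p = 0.88), and in diploids 0.29 ± 0.23 (limma adjusted p = 0.48). TIR2 differed by 0.43 ± 0.17 and 0.10 ± 0.17 (limma adjusted p = 0.093 and 0.78). TIR4 differed by 0.21 ± 0.15 and -0.08 ± 0.15 (limma adjusted p = 0.39 and 0.81). RM haploid replicate 2 held the highest value of the series for TIR1, TIR2, TIR3, TIR4 and DAN4, at 10.65, 10.10, 10.50, 8.82 and 8.27.

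DAN1 and DAN4 are wall protein genes of anaerobic growth. DAN1 ranged from 6.82 to 7.68 over all 28 arrays, and its highest value was on mixture replicate 5. RM minus BY was 0.19 ± 0.16 in haploids and 0.26 ± 0.16 in diploids (limma adjusted p = 0.48 and 0.32). DAN4 ranged from 7.43 to 8.27, and RM minus BY was 0.42 ± 0.16 and 0.32 ± 0.16 (limma adjusted p = 0.083 and 0.20). For DAN4 the arrays of the strains did not overlap in haploids or in diploids, but these differences were not called.

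The mixtures had the lowest group mean for all 4 TIR genes. TIR1 was at 9.15, 9.26, 9.48, 9.77, 9.96 and 9.89 in the mixtures, with a mean of 9.59 against a haploid midparent of 10.20. The difference was -0.61 ± 0.17 (limma adjusted p = 0.025). TIR2 was at 8.87, 8.81, 8.94, 9.12, 9.31 and 9.35 and lay -0.46 ± 0.12 below its midparent (limma adjusted p = 0.023). TIR4 lay -0.34 ± 0.10 below (limma adjusted p = 0.043). The TIR3 difference of -0.45 ± 0.15 was not called (limma adjusted p = 0.057), and it was called without mixture replicate 5, at -0.53 (adjusted p = 0.021). TIR3 was also 0.35 ± 0.14 higher in hybrids than in mixtures, not called (limma adjusted p = 0.071), and called without mixture replicate 5 or hybrid replicate 1 (0.0233 and 0.0295). With a replicate block both TIR3 differences were called, at -0.56 against the midparent and 0.36 against the mixtures (adjusted p = 0.0272 and 0.0375), as was TIR1 in hybrids against RM diploids, at -0.58 (0.0411) beside -0.36 without the block. In mixtures against the haploid midparent 8.53% of all probe sets were called, of which 18% were higher. Most calls thus had the direction of the TIR genes. These TIR calls are not firm. Without RM haploid replicate 2 the TIR1, TIR2 and TIR4 adjusted p-values were 0.0928, 0.103 and 0.156. All 3 calls also ended without BY haploid replicate 2, without mixture replicate 1, 2 or 3, and in a fit on the groups compared alone, and those of TIR1 and TIR4 without BY haploid replicate 3 or RM haploid replicate 1, with adjusted p-values of 0.0507 to 0.157 over all of these. The TIR4 value was 0.0585 without mixture replicate 4, 0.0568 without the dimmest probe sets, 0.0694 with 1 probe set per gene and 0.0540 with a replicate block. Seripauperin genes were lower in the mixtures too, with values given further on, and their part in the TIR values was not tested.

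Within groups the TIR genes and DAN1 moved together from array to array. For each of 24 arrays the deviation from its group mean was taken, and the 45 pairs among the 10 genes were correlated, with a two-sided permutation test that shuffled arrays within groups and adjustment over the 45 pairs. All 6 TIR pairs passed, with Pearson r from 0.654 to 0.899, and from 0.545 to 0.892 without the 2 arrays farthest from the median of the first gene. TIR2 and TIR4, neighbours on chromosome XV, had r = 0.899 and Spearman rho = 0.878 (permutation adjusted p = 0.00022 and 0.00056). TIR1 and TIR2 had r = 0.860 and rho = 0.883 (permutation adjusted p = 0.00034 and 0.0003). TIR3 and TIR4 had r = 0.654 and rho = 0.588, for which rho did not pass (permutation adjusted p = 0.035 and 0.061).

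DAN1 passed with TIR1 (r = 0.800, rho = 0.870, permutation adjusted p = 0.00022 and 0.0003), TIR2 (r = 0.774) and TIR3 (r = 0.699). TIR4 and DAN1 passed by rho alone (r = 0.563, rho = 0.712, permutation adjusted p = 0.067 and 0.0054). DAN4 and CWP2 passed by both (r = 0.630, rho = 0.706, permutation adjusted p = 0.0065 and 0.0045). TIP1, CWP1 and SED1 passed with no gene of the set. On the 18 arrays without the mixtures the TIR pairs had r from 0.711 to 0.922. The points share arrays, and related sequences among these genes or array quality as a source of the shared deviations were not tested. Pairs with genes outside the set were not examined, so how often other pairs pass on these arrays is not known.

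**Figure D3:**
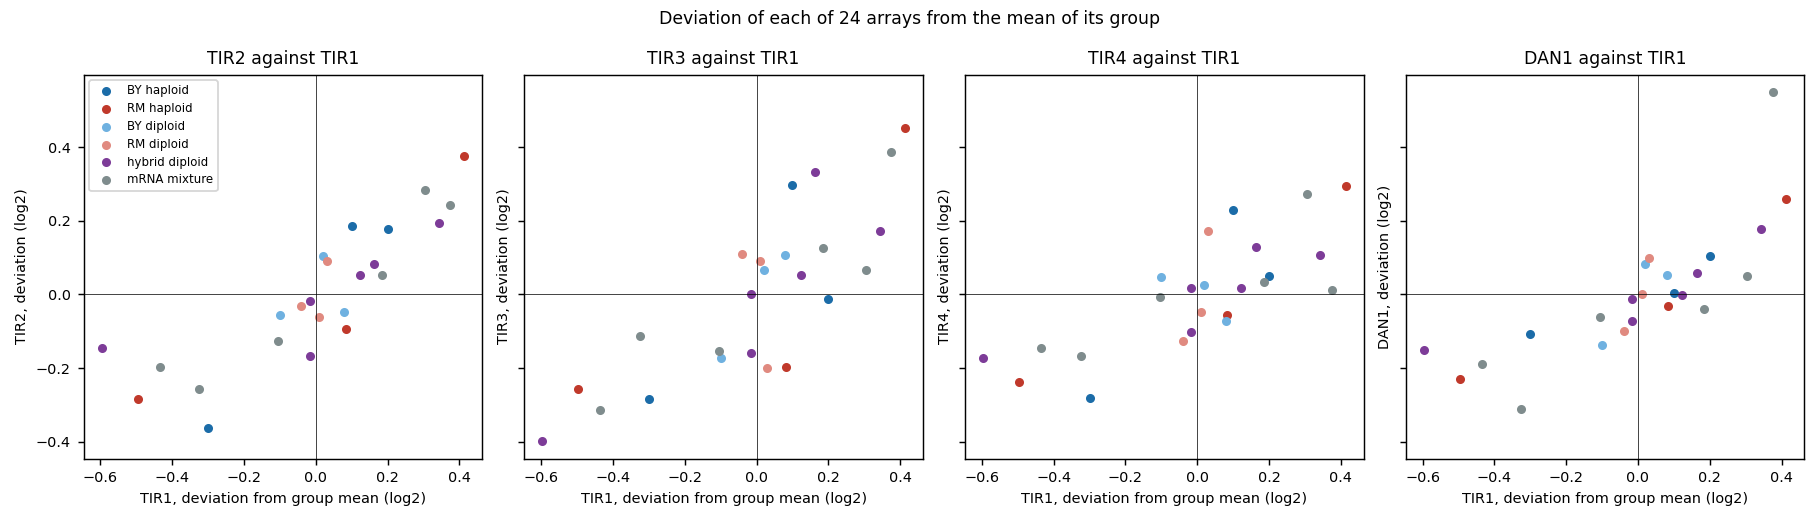
Deviation of TIR2, TIR3, TIR4 and DAN1 (vertical axes, log2) against that of TIR1 (horizontal axes, log2) from the group mean, for each of 24 arrays coloured by group. Over the 24 arrays the points rise together, with r between 0.773 and 0.860, while the RM diploids have TIR1 deviations of -0.04 to 0.03 and show no such rise for TIR3.

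Counted over the 10 genes, the calls in the strain comparisons were as follows. In haploids 3 of 10 were called, CWP1 and SED1 higher and TIP1 lower in RM, beside 18.0% of all probe sets. In diploids 2 of 10 were called, CWP1 higher and TIP1 lower, beside 17.2%. The median difference of the 10 genes was 0.30 in haploids and 0.25 in diploids, beside 0.09 and 0.02 for all probe sets. No gene was called by limma for the strain by ploidy interaction, beside 1.95% of probe sets (1 of 10 had an unadjusted p under 0.05). The diploid against haploid comparison called 0 of 10 by limma in BY, beside 6.35% (2 of 10 at an unadjusted p under 0.05), and in RM 1 of 10, TIP1, beside 8.24%.

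Hybrids against BY diploids gave 2 calls of 10, TIP1 and CWP1, beside 23.1%, and against RM diploids 2 of 10, TIP1 and CWP2, beside 12.5%. Against the diploid midparent 1 of 10 was called, TIP1, beside 18.1%. Against the mixtures 2 of 10 were called, TIP1 lower and SED1 higher, beside 28.2%, and mixtures against the haploid midparent gave 3 of 10, TIR1, TIR2 and TIR4, beside 8.53%. Several of these comparisons share groups of arrays. With 10 genes, 1 call moves a share by 10%, so these counts are not read as different from the background.

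**Figure D4:**
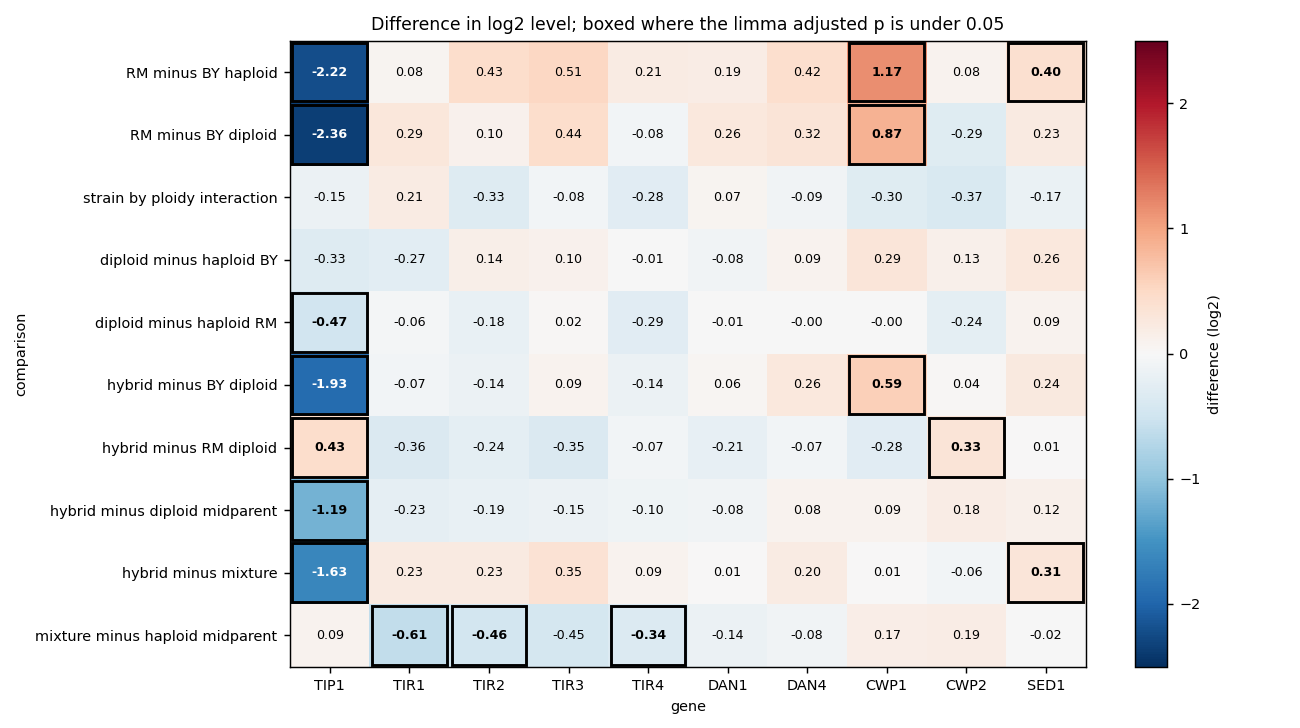
Differences in log2 level (numbers and colour) of the 10 genes (columns) in 10 comparisons (rows), boxed where the limma adjusted p is under 0.05. TIP1 carries 7 of the 16 boxes, with values from -2.36 to 0.43, and the TIR boxes all lie in the row of mixture against haploid midparent.

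Other wall protein genes were called in both directions between strains. Of 26 other wall proteins 5 were higher and 9 lower in RM haploids, and 3 higher and 11 lower in RM diploids, beside 18.0% and 17.2% of all probe sets called in either direction. These shares are also the background of the lists that follow. The largest falls of the list in RM haploids were those of DSE2, SCW11 and SUN4. DSE2, a secreted protein of daughter cells, was lower in RM by -3.32 ± 0.12 (limma adjusted p = 9.0e-16), the glucanase SCW11 by -2.66 ± 0.16 and SUN4, of septum breakdown, by -2.14 ± 0.12. PIR3, a wall protein tied to glucan without a lipid anchor, was higher by 1.86 ± 0.42 (limma adjusted p = 0.0025) and by 2.06 ± 0.42 in diploids. CIS3, its relative, was lower in RM diploids by -1.16 ± 0.09. The median of the list was 0.02 in haploids and -0.19 in diploids, beside 0.09 and 0.02 for all probe sets.

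Glucan and chitin synthesis had 4 of 17 genes higher and 2 lower in RM haploids, and 1 higher and 3 lower in RM diploids. FKS1, the main glucan synthase subunit of growing cells, was lower in RM by -1.08 ± 0.10 in haploids and -1.19 ± 0.10 in diploids (limma adjusted p = 1.6e-08 and 4.4e-09). Its alternative GSC2 was higher in haploids by 0.98 ± 0.25 (limma adjusted p = 0.0059), but not called without RM haploid replicate 3 (0.0537). In diploids GSC2 was not called between the strains, with means of 8.25 in BY and 8.20 in RM. Of 15 genes of O-mannosylation 2 were higher and 2 lower in RM haploids, and in RM diploids 8 were lower and 0 higher. Among these SEC53, the phosphomannomutase that feeds mannosylation, was lower by -0.87 ± 0.10 in diploids (limma adjusted p = 9.7e-07), and the mannosyltransferase genes PMT5 and MNT3 by -0.82 ± 0.25 and -0.78 ± 0.21. The PMT5 call ended without BY diploid replicate 2 or 3 or RM diploid replicate 1 or 3 (adjusted p of 0.0614 to 0.143), and that of MNT3 without RM diploid replicate 1 (-0.53, 0.0998). The list's median was -0.15 in haploids and -0.31 in diploids.

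Genes known from anaerobic growth moved in both directions. Of 17 measured, 4 were higher and 4 lower in RM haploids, and 1 higher and 7 lower in RM diploids. Higher in RM haploids were CYC7 by 1.08 ± 0.32, ERG11 by 0.95 ± 0.13 and OLE1 by 0.60 ± 0.15 (limma adjusted p = 0.019, 8.8e-06 and 0.0048). The CYC7 call ended without BY haploid replicate 1 or 3 or RM haploid replicate 1 or 3 (adjusted p of 0.0519 to 0.0616). ERG11 was also higher in RM diploids by 0.39 ± 0.13, a call that ended on all 28 arrays (0.0638) and without any BY diploid array. FET4, a low-affinity iron transporter, was lower in RM by -1.16 ± 0.12 and -1.71 ± 0.12, and COX5B, the subunit of cytochrome oxidase used at low oxygen, by -1.03 ± 0.24 and -1.45 ± 0.24. AUS1, the neighbour of TIR2, was lower by -0.60 ± 0.18 and -0.76 ± 0.18 (limma adjusted p = 0.018 and 0.0030), while TIR2 was not called in either. In haploids the AUS1 call ended without BY haploid replicate 2 or RM haploid replicate 1 (adjusted p = 0.0662 and 0.0755), and the COX5B call on all 28 arrays (0.0744). Of 22 regulators 3 were higher in RM haploids, beside 18.0% of all probe sets called, which is not read as different. They were the stress factors MSN4 by 0.72 ± 0.18 and MSN2 by 0.68 ± 0.15, and MOT3, a repressor of DAN and TIR genes, by 0.56 ± 0.11 (limma adjusted p = 0.00072). The MSN4 call ended in a fit on these groups alone (adjusted p = 0.0675) and without BY haploid replicate 3 (0.0561). In RM diploids the kinase gene SLT2 of the wall integrity pathway was the 1 regulator called, higher by 0.65 ± 0.16 (limma adjusted p = 0.0061).

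Seripauperins (PAU genes) are small relatives of the TIR and DAN proteins. Of 24 in the R64 annotation 10 were measured. None of the 10 measured was called by limma between strains, with 0 of 10 in haploids and 2 of 10 in diploids at an unadjusted p under 0.05. In the mixtures against the haploid midparent 4 of 10 were lower and 0 higher, beside 8.53% of all probe sets, among them PAU3 by -0.38 ± 0.08 and PAU15 by -0.38 ± 0.08 (limma adjusted p = 0.0060 and 0.0078), and the median of the 10 was -0.22 beside -0.06 for all probe sets. In a fit on these groups alone neither gene was called (adjusted p = 0.0646 and 0.0883). The probe sets of these PAU genes can share sequence with relatives, so the single genes are uncertain, and the 4 calls may not be 4 separate genes.

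**Figure D5:**
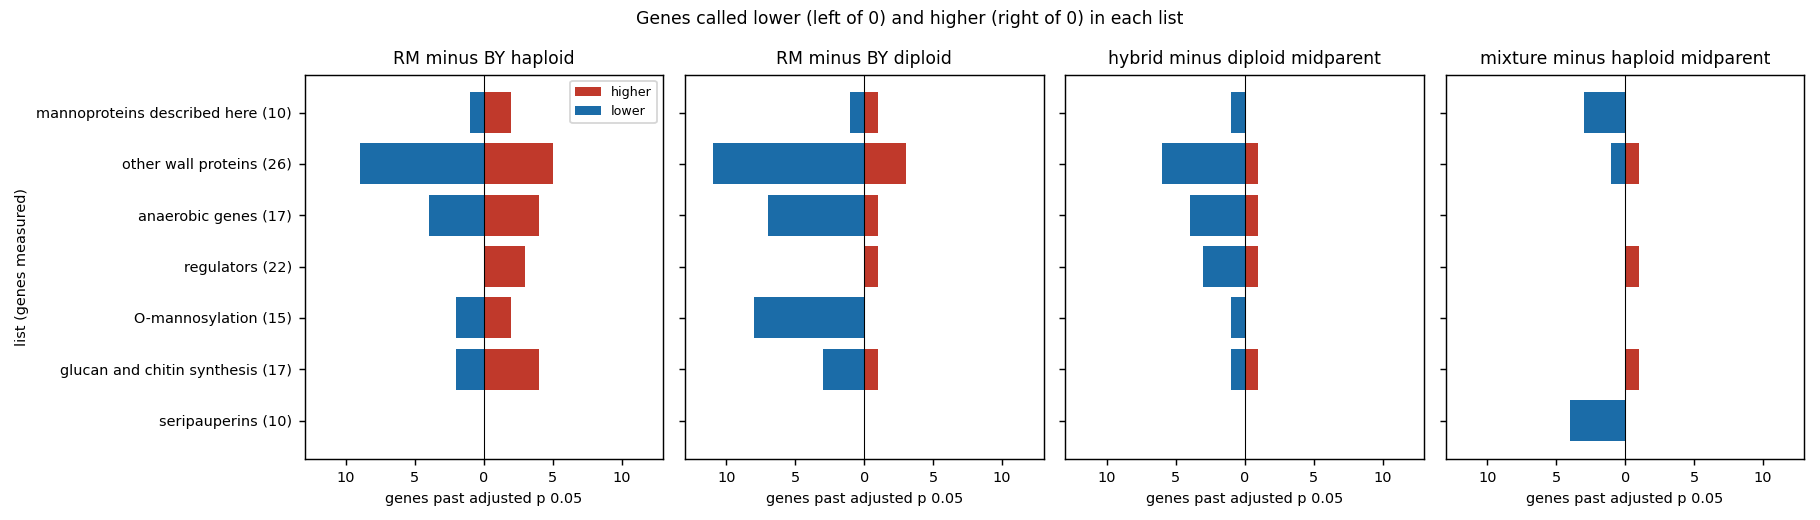
Number of genes called lower (bars left of 0) and higher (bars right of 0) at a limma adjusted p under 0.05 in the 10 mannoprotein genes and 6 related lists, with the number measured in brackets, for 4 comparisons. Other wall proteins have 9 lower and 5 higher in RM haploids, and the mixtures have lower calls in the mannoproteins (3), seripauperins (4) and other wall proteins (1).

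For the other 9 genes the closest patterns over the 28 arrays, as Pearson r, were as follows. CWP1 was followed by YOR062C (r = 0.902) and PHM7 (r = 0.886), and SED1 by GPD1 (r = 0.857) and TWF1 (r = 0.845). YMR206W came first for both TIR2 (r = 0.885) and TIR4 (r = 0.845), and GAT4 second for both TIR1 (r = 0.842) and TIR2 (r = 0.794). GAS4 came first for TIR1 (r = 0.849). DAN1 was followed by THI73 (r = 0.913) and by PAU17 (r = 0.895), whose probe set can share sequence with relatives. DAN4 was followed by HVG1 (r = 0.812) and FOX2 (r = 0.802). TIR3 and CWP2 had the weakest best matches, YNCD0022C (r = 0.795) and TDH1 (r = 0.707).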

How the data were processed

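The deposited values are the authors' processed levels per probe set, read as log2 from their range up to 14.67. How probe signals were summarised and scaled is not given in the sources. Of 9335 probe sets, 60 controls and 1 at 0 on every array were left out, leaving 9274. The platform annotation named 1 gene for 6504, all matched to the R64 annotation, several for 328 and none for 2442. For a gene with several probe sets the one with the highest mean was used.

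Group means were fitted with limma 3.58.1 in R 4.3.3 (lmFit, eBayes) on 24 arrays. Tests were two-sided, with Benjamini-Hochberg adjustment over all probe sets. Midparent differences have delta-method errors from the moderated variance. Correlations used 100000 permutations within groups (numpy 2.4.6). The fits were tested on simulated data. No replicate pair held identical values. Named genes were the 10 genes, the 2 closest patterns of each and up to 3 called genes per direction and list. The genes and lists were chosen with earlier results of these data known. As alternatives, arrays were quantile normalized or centred on their medians, the 25% of probe sets with the lowest mean were dropped, and there were fits on the compared groups or on all 28 arrays, a variance trend, 1 probe set per gene, a replicate block, another midparent, and leaving out each array.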

Additional observations from a re-analysis of the deposited data

Results flagged for a closer look

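Hybrid replicate 1 stood apart for 2 of the 10 genes, out of 20 groups of 6 arrays examined by Dixon's test, which flags about 1 in 20 by chance. TIP1 was at 9.17 there, with the next hybrid array at 9.62, so the gap took 0.634 of the range of the group. Without it the TIP1 difference between hybrids and BY diploids was -1.84 (limma adjusted p = 9.1e-11). CWP2 was at 13.95 on the same array, with the next at 13.80 and a gap of 0.714 of the range. Without it CWP2 was higher in hybrids than in RM diploids by 0.30 (limma adjusted p = 0.043).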

How the results depend on the processing

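Of 16 calls of single genes, those of TIP1 and CWP1 between strains, of both in hybrids against BY diploids, and of TIP1 in hybrids against midparent and mixtures were kept under every alternative setting and on leaving out any array of the groups compared. The other calls ended under at least 1 alternative, and 11 of the 84 differences not called passed under at least 1. The count of called genes in diploid strains was 5 in a fit on these groups alone, where 26.7% of all probe sets were called against 17.2%. Diploid against haploid in RM gave 0 in that fit, on all 28 arrays and with a replicate block. Hybrids against RM diploids gave 1 after quantile normalization, in the fit on these groups and on all 28 arrays. After quantile normalization hybrids against midparent gave 2, and against mixtures 1. Mixtures against midparent gave 0 in a fit on these groups, which called 0.0108% of probe sets against 8.53%, 4.77% after quantile normalization, 4.70% without the dimmest, 2.72% with 1 probe set per gene and 5.49% with the replicate block. The interaction called 3.02% and 3.05% under quantile normalization and without the dimmest, and diploid against haploid in BY 2.92% with 1 probe set per gene. TAT1 in mixtures against the mean of the parents' log2 values was 0.42 and called (adjusted p = 0.042), the sign changing because that midparent is lower by construction.

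Leaving out single arrays gave 2 to 4 called genes for haploid strains, 2 to 3 for diploid strains, 0 for the interaction, 0 for ploidy in BY, 0 to 1 for ploidy in RM, 2 for hybrids against BY, 0 to 3 against RM, 1 against midparent, 2 to 3 against mixtures, 0 to 4 for mixtures against midparent and 5 to 9 for any difference. Without mixture replicate 5 the shares of all probe sets called rose to 3.19% for the interaction, 12.6% for ploidy in RM, 22.8% for hybrids against RM diploids and 28.6% against midparent. They were 15.0% for hybrids against BY without BY diploid replicate 3, 7.48% against RM without RM diploid replicate 2, and 5.09%, 3.15% and 5.53% for mixtures against midparent without BY haploid replicate 2, RM haploid replicate 2 and mixture replicate 1. Whether the titles' replicate numbers pair the arrays cannot be told. Same-numbered deviations correlated at -0.291 to 0.464, over 0.1 in 19 of 48 pairs, and differently numbered arrays were not compared. Hybrids against mixtures had 0.464, 0.206, 0.218 and 0.244 for replicates 1 to 4, and -0.245 and -0.109 for replicates 5 and 6. With the replicate block, TIR3 was called in haploid strains (0.51, adjusted p = 0.048) and the count for ploidy in RM was 0. The cause of these changes was not tested.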

Other observations

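Of 26 other wall proteins 8 were called with ploidy in RM, DSE2 and SCW11 among them, beside 8.24% of all probe sets. In BY 2 were called, TOH1 and CRH1, beside 6.35%. DSE2 was higher in RM diploids than in RM haploids by 2.72 ± 0.12 and SCW11 by 1.91 ± 0.16 (limma adjusted p = 1.5e-13 and 2.0e-08), and the strain by ploidy interaction was 2.33 ± 0.18 and 1.70 ± 0.23 (limma adjusted p = 3.2e-09 and 4.9e-05), calls that ended in the fit on all 28 arrays (0.0777 and 0.163). SUN4 was lower in hybrids than the diploid midparent by -0.88 ± 0.09 and DSE2 by -0.89 ± 0.09 (limma adjusted p = 7.7e-07 and 1.0e-06), of which the DSE2 call ended on all 28 arrays (0.0709). CYC7, a cytochrome c gene known from low oxygen, was higher in hybrids than the midparent by 1.13 ± 0.23 (limma adjusted p = 0.0023) and higher than in the mixtures by 1.40 ± 0.23. GSC2, a glucan synthase gene, was higher in hybrids than in both diploid parents, by 0.67 ± 0.21 over BY and 0.72 ± 0.21 over RM (limma adjusted p = 0.024 and 0.028), but each call ended without any single array of that parent (adjusted p of 0.0522 to 0.103 for BY and 0.0691 to 0.103 for RM).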
